A study of Mus musculus with 64 samples.

Results

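Chromatin immunoprecipitation followed by sequencing (ChIP-seq) of SOX2 in mouse cells gave 12 peak lists, 3 biological replicates in each of 4 conditions. The sites described here are those at which SOX2 had a peak in every condition. They were chosen by the SOX2 peaks themselves: the 20000 peaks of highest fold enrichment were taken from each list, peaks sharing at least 1 bp were merged into sites, and a site was kept where at least 2 of the 3 lists of each condition had a peak. Of 125188 merged sites, 1965 met this rule, and they are called kept sites. A further 2643 sites met it in 3 conditions, 5860 in 2, 19151 in 1 and 95569 in none.

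All cells were mouse embryonic stem cells (ESC) of strain HM1 (129) or cells derived from them, collected at 72 h. Naive ESC were wild-type cells kept in 2i medium, which holds an activator of WNT signalling and a MEK inhibitor. Caudal epiblast-like cells (CEpiLC) were wild-type cells given bFGF and LGK974, an inhibitor of WNT secretion, and then the WNT activator CHIR99021 as well (FLC medium). SOX2-ON and SOX2-OFF cells carried a doxycycline-inducible Sox2 transgene in a background labelled Sox2-/-, and were grown with 1 µg/ml doxycycline before differentiation in the same FLC medium. Doxycycline stayed in the medium of SOX2-ON cells and was withdrawn from SOX2-OFF cells, which retain some SOX2 protein according to the study. The engineered line was selected from picked clones, so its behaviour may be that of a clone. In each condition β-catenin and LEF1 were also immunoprecipitated, 3 libraries each, as were TCF7L1 and TCF7L2, which the labels name TCF3 and TCF4. Naive ESC and SOX2-ON are called the high SOX2 conditions, and CEpiLC and SOX2-OFF the low SOX2 conditions.

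SOX2 is a transcription factor of the HMG-box family that binds short motifs in enhancers and promoters, and in pluripotent cells it often binds next to the POU factor OCT4 on a composite OCT-SOX motif. β-catenin is the nuclear effector of WNT signalling. It has no DNA-binding domain of its own and is brought to cis-regulatory elements (CREs) by LEF1 and the TCF factors, which carry an HMG box of the same fold and recognise a motif that begins like a SOX motif. TCF7L1 acts mostly as a repressor of WNT targets in ESC, and LEF1 mostly as an activator.

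The sequences of 9 kept sites are shown to illustrate the motifs and mediator patterns described below. Each is 151 bases of the plus strand of GRCm38 (mm10) centred on the SOX2 summit, read from the RefSeq assembly, and none overlaps an annotated exon. Capitals mark matches on either strand to the SOX words CATTGT or CTTTGT, the TCF words CTTTGAA or CTTTGAT, the POU words ATGCAAAT or ATGCTAAT, or the OCT-SOX composite, and adjoining matches run together. The TCF words share 5 letters with a SOX word and differ from it at the sixth. The first 3 sites have a TCF match and peaks of β-catenin and TCF7L1 in all 4 conditions.
Near Med13l, chr5:119055593-119055743: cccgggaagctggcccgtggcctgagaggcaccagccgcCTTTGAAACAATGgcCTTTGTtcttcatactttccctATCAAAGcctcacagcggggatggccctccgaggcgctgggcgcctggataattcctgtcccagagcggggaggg
Chn2 intron, chr6:54097000-54097150: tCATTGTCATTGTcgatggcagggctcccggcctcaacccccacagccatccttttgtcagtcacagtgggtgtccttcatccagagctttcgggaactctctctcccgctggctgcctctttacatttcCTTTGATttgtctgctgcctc
Cdx2 intron, chr5:147304256-147304406: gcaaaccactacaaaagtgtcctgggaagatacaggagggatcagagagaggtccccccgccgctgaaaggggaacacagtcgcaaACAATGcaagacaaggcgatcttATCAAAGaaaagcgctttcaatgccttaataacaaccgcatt
The next 2 carry the OCT-SOX composite, and the 2 after them a POU match; the site in Nes had no mediator peak in any list of equal length.
Prune2 intron, chr19:17138246-17138396: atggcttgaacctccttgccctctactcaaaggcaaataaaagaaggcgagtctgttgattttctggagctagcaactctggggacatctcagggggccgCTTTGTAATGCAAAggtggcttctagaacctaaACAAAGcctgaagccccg
Upstream of Dll1, chr17:15380726-15380876: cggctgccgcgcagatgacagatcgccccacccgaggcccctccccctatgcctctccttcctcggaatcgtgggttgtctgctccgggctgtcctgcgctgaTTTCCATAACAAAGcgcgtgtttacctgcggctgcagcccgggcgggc
Near Klf13, chr7:63957189-63957339: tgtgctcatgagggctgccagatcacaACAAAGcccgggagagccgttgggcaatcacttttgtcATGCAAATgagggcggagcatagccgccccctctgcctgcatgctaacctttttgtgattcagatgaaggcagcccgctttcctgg
Nes intron, chr3:87974408-87974558: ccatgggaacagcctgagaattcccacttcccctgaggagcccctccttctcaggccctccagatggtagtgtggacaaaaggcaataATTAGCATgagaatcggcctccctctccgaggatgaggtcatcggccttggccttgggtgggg
The last 2 had β-catenin at one SOX2 level only in the equal-length lists, at high SOX2 near Cnr1 and at low SOX2 in Atp10a.
Near Cnr1, chr4:33823959-33824109: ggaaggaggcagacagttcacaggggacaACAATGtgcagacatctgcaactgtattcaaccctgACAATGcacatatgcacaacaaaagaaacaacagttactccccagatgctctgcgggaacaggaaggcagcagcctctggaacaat
Atp10a intron, chr7:58668798-58668948: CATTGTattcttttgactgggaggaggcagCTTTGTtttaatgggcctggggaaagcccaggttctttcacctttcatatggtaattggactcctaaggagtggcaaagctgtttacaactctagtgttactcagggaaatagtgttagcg

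The 60 peak lists differed in length, from 29298 to 907862 peaks for SOX2 and from 1628 to 991719 for the other proteins, and they give no read counts, so depth is unknown. For each mediator (β-catenin, LEF1, TCF7L1 or TCF7L2) only the peaks of highest −log10 p were therefore used, as many as the shortest list held. This was 3423 peaks per β-catenin list and 4443 per LEF1 list. It was 1628 per TCF7L1 list and 4134 per TCF7L2 list. These are called lists of equal length. Some libraries stood apart: LEF1 replicate 1 of naive ESC overlapped 1.32% of the kept sites against 36.3% and 12.9% in the other naive replicates, and TCF7L1 replicate 1 of SOX2-ON overlapped 11.6% against 29.7% and 29.4%. The differences between SOX2 levels are given with and without these 2 libraries. The other LEF1 and TCF7L1 values include them.

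SOX2 occupied the kept sites at a higher fold than it did the sites of 1 to 3 conditions, which follows in part from the rule and is given as a description. In naive ESC replicates 1 to 3 the median fold at kept sites was 17.8, 15.0 and 14.3, against 13.3, 9.48 and 9.04 at the other sites. In SOX2-ON it was 12, 12.2 and 15.3, against 8.83, 8.57 and 10.3. In SOX2-OFF it was 8.49, 14.2 and 14.1, against 6.20, 9.01 and 8.79, and in CEpiLC it was 12.3, 13.6 and 14.6, against 6.22, 7.72 and 7.47. The medians of the high and low SOX2 conditions overlapped, with naive ESC replicate 1 highest and SOX2-OFF replicate 1 lowest. Fold is scaled to the background of each library, so it does not compare amounts of SOX2 between libraries. The order of folds given at single sites below is an order of these scaled values.

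**Figure D1:**
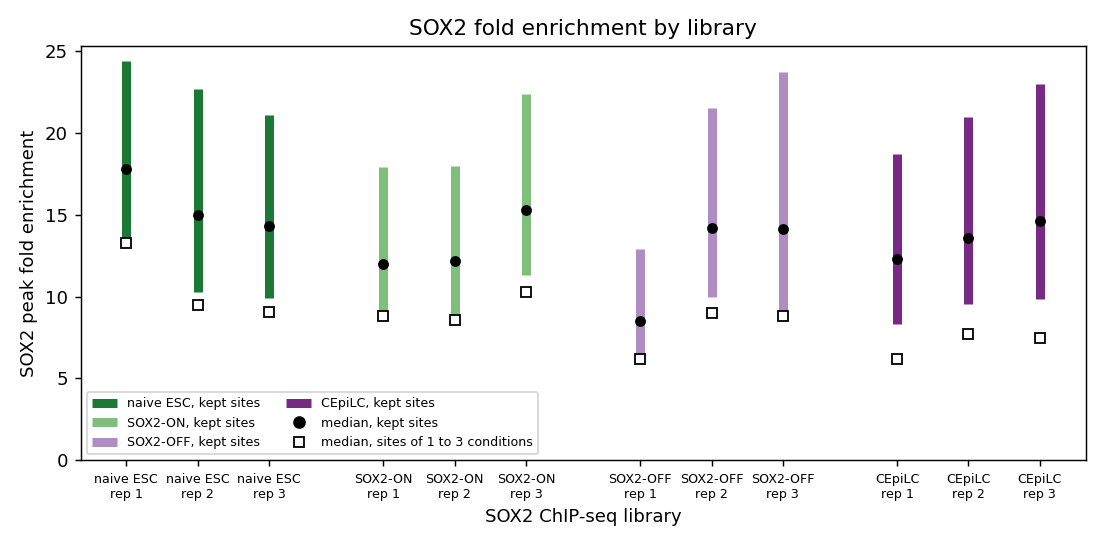
SOX2 peak fold enrichment (vertical axis, linear) in each of the 12 SOX2 libraries. Coloured bars span the interquartile range over kept sites, filled points are their medians and open squares the medians over sites of 1 to 3 conditions; kept sites lie above the others in every library, by construction in part, and medians run from 8.49 to 17.8.

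Most kept sites were well above the requirement. Of the 1965, 816 had a peak in all 12 lists, 630 in 11, 368 in 10, 128 in 9 and 23 in the minimum of 8. The median fold was 17.2 at the sites with all 12 and 8.37 at the 23 with exactly 2 lists in every condition. Just outside the rule lay 1370 sites with 3 conditions and 1 of 3 lists in the fourth, at a median fold of 10.2. The condition missing from the sites of 3 conditions was SOX2-OFF at 1251, naive ESC at 652, SOX2-ON at 584 and CEpiLC at 156. When all deposited peaks were considered, 1896 of these 2643 sites also had a peak in at least 2 of 3 lists of every condition, so the border of the set depends on the 20000-peak limit. Within full lists, 1755 to 1958 of the kept sites had a SOX2 peak per library, and 1578 had one in all 12.

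The rank of SOX2 fold within each library was also compared between levels. Among 2620 merged sites with a SOX2 peak in all 12 full lists, 296 (11.3%) ranked higher in all 6 low SOX2 libraries than in any high SOX2 library, and 49 (1.87%) the reverse. Of the 1578 kept sites among them, the counts were 192 and 32. The rule used these SOX2 values, so the counts are a description, and nothing is read from them.

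SOX2 summits at kept sites lay close together in all conditions. The distance between the summits of 2 libraries had a median over sites of 23 to 44 bp, depending on the pair. Pairs of the same condition averaged 31.1 bp and pairs of different conditions 35.0 bp. The peaks compared are those that chose the sites, so no test is given. SOX2-ON and SOX2-OFF were farthest apart, at a mean of 38.7 bp, and CEpiLC libraries were closest to each other, at 25.7 bp. The groups of pairs overlapped, since CEpiLC and SOX2-OFF lay 30.2 bp apart and naive ESC and CEpiLC 32.9 bp, while pairs within naive ESC and within SOX2-ON averaged 33.3 and 33.7 bp.

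Kept sites lay mostly away from gene starts. A promoter, defined as within 1 kb of the start of a protein-coding gene, held 322 (16.4%), an intron 767 (39.0%), the space between genes 819 (41.7%), a noncoding exon 56 (2.85%) and a coding exon 1. The median distance to the nearest start was 24.2 kb. The promoter share was 15.2% at sites of 1 to 3 conditions. It was 2.05% at the 1369 high-level sites, which had SOX2 peaks in at least 5 of 6 high SOX2 lists and at most 1 of 6 low SOX2 lists, and 22.0% at the 864 low-level sites defined the opposite way. Kept sites were wide, with a median of 1035 bp (283 to 5022) against 559 bp at sites of 1 to 3 conditions. Repeats made up most of the window around the summit at 14.8% of kept sites and at 12.2% of the others. They were spread over the genome, with 1.3% to 1.86% of the merged sites of each autosome and 2.60% of those on chromosome X, and 195 lay within 12.5 kb of another kept site. The densest group held 4 within chr1:86294284-86312069 at B3gnt7, a gene of glycan synthesis.

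The window of 100 bp on each side of the summit held a SOX word at 1239 kept sites (63.1%), against 56.0% at sites of 1 to 3 conditions and 25.6% in windows 5000 bp from the kept sites. Over all merged sites the share was 41.6%. High-level sites held one more often, at 76.1%, and low-level sites less often, at 35.1%. A POU octamer word was found at 16.4% of kept sites, 6.78% of sites of 1 to 3 conditions, 8.55% of high-level sites, 9.49% of low-level sites, 4.11% of all merged sites and 1.63% of the distant windows. The OCT-SOX composite was found at 66 kept sites (3.36%) and at 0.882% of sites of 1 to 3 conditions, 0.397% of all merged sites and 0.153% of the distant windows. A TCF word was found at 375 kept sites (19.1%), 15.1% of sites of 1 to 3 conditions, 11.6% of all merged sites and 7.99% of distant windows. It was found at 15.6% of high-level sites and, more often than at kept sites, at 23.8% of low-level sites. Both a SOX and a TCF word stood in 217 kept windows, and 449 (22.8%) had no SOX, POU or TCF word, against 34% of sites of 1 to 3 conditions.

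Other words were searched for as well. The CDX words TTTATGG and TTTATTG matched 4.43% of kept sites, below the 7.33% of distant windows and the 6.99% of all merged sites. The GC box GGGCGGGG matched 8.09% of kept sites and 3.36% of all merged sites, with 30.4% at kept promoters and 3.71% at other kept sites, and 1.24% of high-level and 11.1% of low-level sites. The TEAD words CATTCCA or CATTCCT matched 10.5% against 8.86% of all merged sites, the KLF words GGGTGTGG or GGGCGTGG 3.66% against 3.25%, the T-box word GGTGTGA 3.21% against 3.10% (8.45% at low-level sites), the ESRRB word TCAAGGTCA 0.763% against 0.766% and the CTCF word 1.98% against 1.24%. These shares are descriptions of letters in a window, and a match is not a measured binding site.

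**Figure D2:**
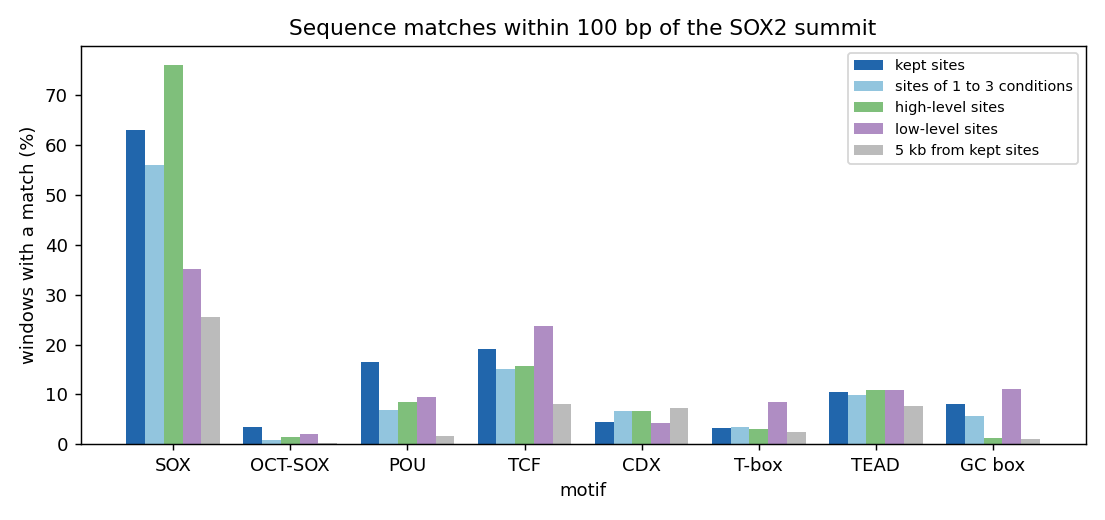
Share of windows (%, bars from 0) with a match to each motif within 100 bp of the SOX2 summit, for kept sites, sites of 1 to 3 conditions, high-level and low-level SOX2 sites, and windows 5 kb from kept sites. The POU share of kept sites (16.4%) exceeds that of the other sets, whereas their SOX share (63.1%) lies between those of the low-level (35.1%) and high-level (76.1%) sites.

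All 4 mediators overlapped kept sites more often than sites of 1 to 3 conditions. In lists of equal length β-catenin had a peak at a mean of 36.6% of kept sites and 7.24% of the others over 12 libraries, a difference of 29.3 percentage points. For LEF1 the shares were 22.0% and 4.87% (difference 17.1), for TCF7L1 21.0% and 3.18% (17.8), and for TCF7L2 16.7% and 4.05% (12.6). Each difference was positive in 12 of 12 libraries, and an exact sign-flip permutation test gave p = 4.88e-04 for each, the smallest it can give, and the same value after Benjamini-Hochberg adjustment over the 4. Against sites of exactly 3 conditions the differences were 17.5, 10.2, 11.4 and 7.86 percentage points, with the same p. Kept sites are wider and have higher SOX2 folds than the other sites, and the part of fold in the difference was not tested. With windows of 200 bp on each side of the summit in place of the whole site, which gives all sites 1 width, the differences were 28.3, 15.9, 17.3 and 11.4. By definition the other sites fell short of the SOX2 rule in at least 1 condition, and 19151 of the 27654 met it in 1 only. The direction of the differences may thus follow in part from the rule, and the p-values do not separate that part.

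β-catenin, the WNT effector, had a peak at more kept sites in the high than in the low SOX2 conditions. Its share of kept sites was 39.3%, 36% and 37.5% in naive ESC, 42.7%, 44.2% and 44.3% in SOX2-ON, 33.1%, 33.2% and 32.5% in SOX2-OFF, and 34.1%, 32.2% and 29.6% in CEpiLC. Every high SOX2 library lay above every low SOX2 library, with SOX2-ON highest. The means were 40.7% ± 3.56 (SD, n = 6) and 32.5% ± 1.54 (SD, n = 6), a difference of 8.21 percentage points (exact permutation within cell line, 400 assignments, two-sided, p = 0.005, adjusted over 4 mediators p = 0.02). SOX2-ON exceeded SOX2-OFF by 10.8 percentage points and naive ESC exceeded CEpiLC by 5.63, each with p = 0.1 in an exact permutation test of 3 against 3, the smallest it allows. Naive ESC and CEpiLC were grown in different media, so SOX2 level and medium cannot be told apart between them. The pooled difference includes this comparison. The difference in the wild-type cells minus that in the engineered line was -5.16 percentage points, which was not beyond the spread of the libraries (exact permutation of line labels, p = 0.1, adjusted p = 0.2). The adjusted p for high against low SOX2 was 0.125 with the replicate numbers as blocks and 0.08 with all deposited peaks. The exact permutation within blocks cannot give p below 0.0312, which β-catenin reached. At that value 1 mediator alone cannot pass the threshold after adjustment over 4. At sites of 1 to 3 conditions, too, every high SOX2 library lay above every low SOX2 library. The β-catenin means there were 7.96% in naive ESC, 7.89% in SOX2-ON, 6.03% in SOX2-OFF and 7.06% in CEpiLC. The order of the levels is thus not particular to kept sites.

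At SOX2 sites that differed between levels the β-catenin share ran over a wider range of condition means than at kept sites. At high-level sites it averaged 23.2% in naive ESC and 22.5% in SOX2-ON, but 1.1% in SOX2-OFF and 0.219% in CEpiLC. At low-level sites it averaged 39.0% in CEpiLC and 34.3% in SOX2-OFF, against 6.10% in naive ESC and 15.2% in SOX2-ON. The kept sites held condition means between 32.0% and 43.7%. In CEpiLC the share was lower at kept sites, at 32.0%, than at low-level sites in every library, and in SOX2-OFF the mean was 32.9%. In naive ESC and SOX2-ON the means, 37.6% and 43.7%, were above those of high-level sites.

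LEF1 shares spread widely between replicates. Its share of kept sites was 1.32%, 36.3% and 12.9% in naive ESC, 21.9%, 35.2% and 25.8% in SOX2-ON, 11.6%, 14.1% and 17.4% in SOX2-OFF, and 30.3%, 30.5% and 26.5% in CEpiLC. The high and low conditions overlapped and differed by 0.492 percentage points (exact permutation, p = 0.94, adjusted p = 0.94), and by 4.67 without naive replicate 1 (p = 0.4). SOX2-ON exceeded SOX2-OFF by 13.3 percentage points without overlap, whereas naive ESC lay 12.3 below CEpiLC with overlap. Without naive replicate 1 the latter was 4.53 below.

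TCF7L1, mostly a repressor in ESC, had a peak at 21.5%, 22.2% and 22.2% of kept sites in naive ESC, 11.6%, 29.7% and 29.4% in SOX2-ON, 19.3%, 23.8% and 21.7% in SOX2-OFF, and 13.4%, 20.3% and 17.3% in CEpiLC. The levels overlapped, and the high SOX2 libraries were 3.46 percentage points higher (exact permutation, p = 0.295, adjusted p = 0.59). Without SOX2-ON replicate 1 the difference was 5.70 (exact permutation, p = 0.015, not adjusted), so 1 library decides this call. TCF7L2 had a peak at 12.8%, 24% and 13.7% in naive ESC, 12.8%, 16.1% and 18.8% in SOX2-ON, 12.9%, 17.1% and 14.2% in SOX2-OFF, and 23.5%, 16.4% and 18% in CEpiLC. Its levels overlapped, and the difference between high and low SOX2 was -0.653 percentage points (exact permutation, p = 0.76, adjusted p = 0.94).

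**Figure D3:**
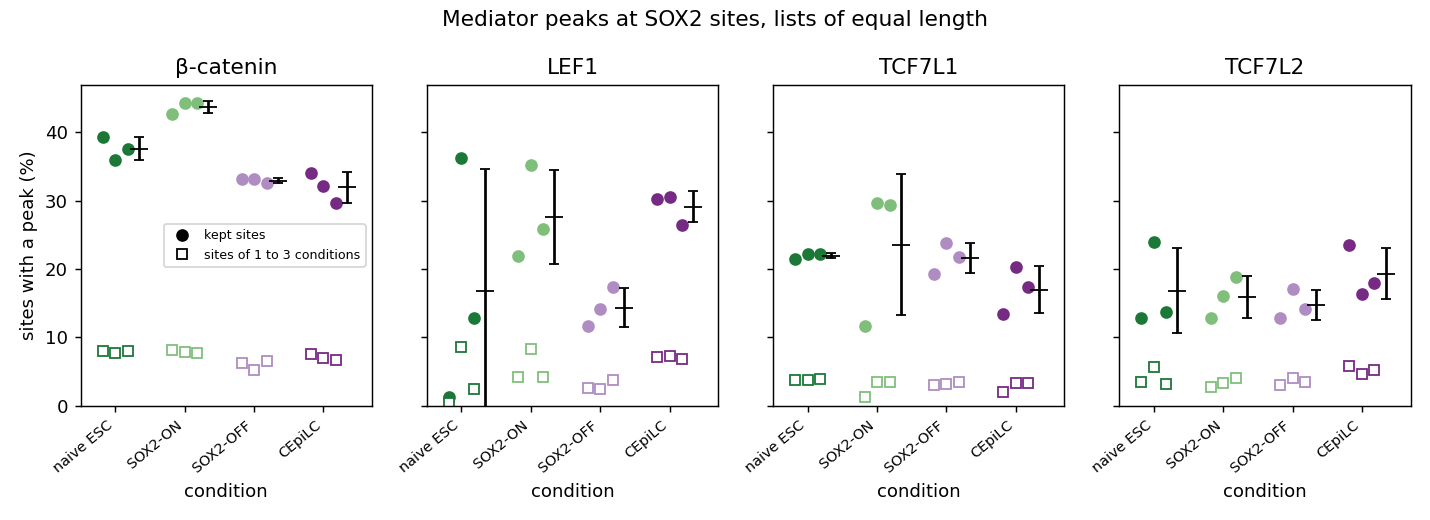
Share of sites (%, vertical axis) with a mediator peak in each library, by condition, for kept sites (filled points) and sites of 1 to 3 conditions (open squares), in lists of equal length; black bars give the mean and SD of 3 libraries at kept sites. β-catenin at kept sites lies between 29.6% and 44.3%, with all naive ESC and SOX2-ON libraries above all others, while LEF1 in naive ESC spreads from 1.32% to 36.3%.

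Single kept sites were then classed by the conditions in which a mediator was found. β-catenin reached 2 of 3 libraries in each of the 4 conditions at 352 kept sites, against 614 of all merged sites (0.490%), so 57.3% of the merged sites with this pattern were kept SOX2 sites. The counts were 75 of 145 for LEF1 (0.116% of merged sites), 190 of 275 for TCF7L1 (0.220%) and 123 of 705 for TCF7L2 (0.563%), of which kept sites made up 51.7%, 69.1% and 17.4%. Kept sites were 1.57% of all merged sites. TCF7L1 and LEF1 sites of this kind were nearly all shared with β-catenin: 187 of the 190 TCF7L1 sites (98.4%, and 53.1% of the β-catenin sites) and 72 of the 75 LEF1 sites (96.0%, and 20.5%). For TCF7L2 the overlap with β-catenin was 93 sites, 75.6% of its own and 26.4% of those of β-catenin. Over all merged sites the overlap with β-catenin was 267 of 275 for TCF7L1, 114 of 145 for LEF1 and 134 of 705 for TCF7L2. For TCF7L1 the near-complete overlap is thus not particular to kept sites.

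All 4 mediators were present in all 4 conditions at 43 kept sites, 3 of them at 55, 2 at 114 and 1 at 175, against 53, 85, 197 and 878 of all 125188 merged sites. At 376 kept sites (19.1%) no mediator had a peak in any of the 48 lists of equal length, which was the case at 106517 of all merged sites. In the full lists 11793 merged sites had none, but every kept site had a peak of some mediator in at least 1 library, and the share of kept sites with a peak in 1 full list ran from 12.5% to 93.6%.

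β-catenin was called at high SOX2 alone, in at least 5 of 6 high and at most 1 of 6 low SOX2 lists of equal length, at 112 kept sites, and at low SOX2 alone at 35. Over all merged SOX2 sites the counts ran the other way, with 421 at high SOX2 (0.336%) and 644 at low SOX2 (0.514%). These calls depend on list length: 14 of the 112 sites, and 0 of the 35, had a β-catenin peak in at most 1 full list of the other level, and 18 of the 35 had one in all 6. For LEF1 the counts were 20 at high and 30 at low SOX2 (background 0.0375% and 0.317%), for TCF7L1 61 and 28 (0.153% and 0.211%), and for TCF7L2 18 and 23 (0.0423% and 0.112%). The LEF1 count at high SOX2 was 0 without replicate 2 and without replicate 3, and 20 without replicate 1. The LEF1 count in all 4 conditions was 51 without replicate 1, 9 without replicate 2 and 8 without replicate 3, and that at low SOX2 alone was 6, 18 and 4. With a replicate left out the rules were stricter, so these counts do not show the part of the replicate alone. They needed all remaining lists of a level and none of the other level, or both remaining lists of each condition.

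The SOX2 fold, which the rule used, is given at these calls as a description. At the 112 sites with β-catenin at high SOX2 alone, log2 SOX2 fold, centred on the median of kept sites in each library, was higher by a median of 1.02 in the high SOX2 libraries, and 106 of the 112 were above 0. At the 35 sites with β-catenin at low SOX2 alone the median was -0.841, with 5 above 0. Over all 1965 kept sites the median was -0.0251, with 954 (48.5%) above 0. At the sites called at high and at low SOX2 alone the medians were 1.40 and -0.716 with LEF1, 0.908 and -0.671 with TCF7L1, and 1.39 and -0.760 with TCF7L2. At the 352 sites with β-catenin in all 4 conditions the median was -0.293.

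Sites with a TCF word carried mediators most often. β-catenin had a peak at a mean of 70.4% of the 375 kept sites with a TCF match (59.2% to 83.2% over 12 libraries) and at 28.6% of the 1590 without (22.6% to 36%), so the ranges did not overlap. LEF1 averaged 46.8% with a match and 16.1% without, TCF7L1 51.3% and 13.9%, and TCF7L2 35.4% and 12.3%. Conversely a TCF word stood at 52.0% of the kept sites with β-catenin in all 4 conditions, at 63.7% of those with TCF7L1 and at 65.3% of those with LEF1, but at 19.6% of the sites with β-catenin at high SOX2 alone, 8.57% of those at low SOX2 alone and 3.59% of the 613 kept sites without β-catenin in any list of equal length. For the other mediators the shares at high and low SOX2 alone were 35.0% and 46.7% (LEF1), 34.4% and 35.7% (TCF7L1), and 61.1% and 39.1% (TCF7L2), and TCF7L2 in all 4 conditions had 52.8%. With or without a POU word the β-catenin share was 38.1% and 36.3%. With or without the OCT-SOX composite it was 27.3% and 36.9%, and with or without a SOX word 34.3% and 40.4%.

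Position and SOX2 rank also went with mediator occupancy. β-catenin overlapped 14.8% of kept promoters and 40.8% of the other kept sites, and TCF7L1 5.69% and 24%. TCF7L2 overlapped 21.8% of kept promoters and 15.7% of the others. When kept sites were divided in 3 by their mean SOX2 rank, each of 655 sites, β-catenin overlapped 53.8% of the best-ranked, 32.6% of the middle and 23.3% of the lowest-ranked, and its excess at high SOX2 was 12.3, 7.84 and 4.45 percentage points. At promoters the β-catenin share at high minus low SOX2 was -2.59 points, and at the other kept sites 10.3 points. Sites made mostly of repeats had a mean β-catenin share of 38.2%, and the rest 36.3%. The summit of β-catenin lay at a median of 24 to 34 bp from the SOX2 summit of the kept site, depending on the library, and those of LEF1, TCF7L1 and TCF7L2 at 34 to 57, 23 to 48 and 37 to 56 bp.

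**Figure D4:**
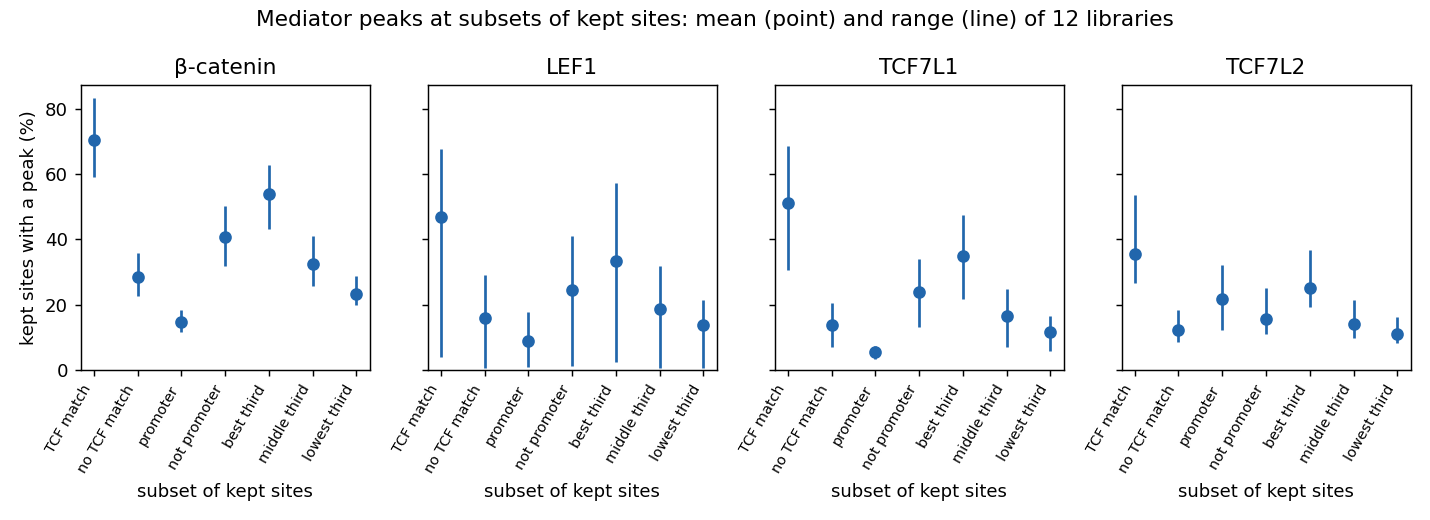
Share of kept sites with a peak of each mediator (%, vertical axis) in subsets of kept sites: with or without a TCF match, at or away from promoters, and in 3 sets of 655 sites by mean SOX2 rank. Points are means and lines the range over 12 libraries; β-catenin reaches 70.4% at sites with a TCF match and 14.8% at promoters.

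The strongest kept sites were ordered by mean rank of SOX2 fold over the 12 libraries. First was a site between genes at chr6:149130626-149132717, 1.09 kb from the start of Gm10203 and within 10 kb upstream of Etfbkmt, a lysine methyltransferase gene. Its SOX2 fold was 51.8, 76.1 and 68.7 in naive ESC, 63.2, 71.4 and 75.2 in SOX2-ON, 37.9, 89.1 and 62.8 in SOX2-OFF, and 49.8, 62.7 and 64.7 in CEpiLC. Its conditions overlapped, and β-catenin had a peak there in 11 of 12 lists of equal length whereas TCF7L2 had none. LEF1 was called there at high SOX2 alone, though in the full lists LEF1 had a peak in 10 of 12 and TCF7L2 in 8.

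The third site, at chr5:119054637-119056686, lay 495 kb from the nearest start, that of Med13l, a subunit gene of the Mediator kinase module. SOX2 fold was 56.9, 51 and 35.9 in naive ESC, 65.0, 40.6 and 69.7 in SOX2-ON, 60.8, 86.4 and 82.8 in SOX2-OFF, and 71.5, 152 and 168 in CEpiLC. All CEpiLC values were above those of the high SOX2 conditions, and mediators had a peak in 45 of 48 lists.

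In an intron of Chn2, which encodes a RAC GTPase-activating protein, SOX2 fold at chr6:54096002-54097923 was 36, 46.0 and 32.5 in naive ESC, 42.3, 36.6 and 73.4 in SOX2-ON, 95.8, 169 and 169 in SOX2-OFF, and 61.1, 97.0 and 163 in CEpiLC. Only SOX2-ON replicate 3 among the high SOX2 libraries reached the low SOX2 range, and mediators had a peak in 45 of 48 lists.

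The site near Klf13, a zinc finger factor gene, at chr7:63956403-63958155, carries the POU octamer. Its SOX2 fold was 37.8, 49.4 and 49.0 in naive ESC, 33.7, 51.6 and 56.3 in SOX2-ON, 44.6, 81.7 and 47.9 in SOX2-OFF, and 62.6, 120 and 170 in CEpiLC, with CEpiLC above all high SOX2 libraries. β-catenin had a peak in 9 of 12 lists and TCF7L1 in 3. The OCT-SOX site in Prune2, at chr19:17137722-17138864, had 48.2, 51.9 and 56.8 in naive ESC, 37.0, 30.7 and 49.9 in SOX2-ON, 17.3, 45.8 and 32.6 in SOX2-OFF, and 46.7, 47.3 and 52.3 in CEpiLC. All naive ESC and CEpiLC values lay above SOX2-OFF, with SOX2-ON overlapping all other conditions, and β-catenin had a peak in 12 of 12 lists. Others of the best 10 lay near Ube2d2a and Cnr1 and in introns of Slc5a4b and Cnot2, the last 2 with 59.2% and 61.7% of the summit window in repeats.

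The best-ranked kept site with β-catenin at high SOX2 alone lay 101 kb from the start of Cnr1, the cannabinoid receptor gene, at chr4:33823225-33824545. β-catenin had a peak in 2 of 3 naive ESC and 3 of 3 SOX2-ON lists of equal length and in none of the low SOX2 lists, yet in 10 of 12 full lists. SOX2 fold was 49.1, 45.6 and 58.3 in naive ESC, 56.5, 64 and 82.5 in SOX2-ON, 28.4, 72.1 and 42.6 in SOX2-OFF, and 41.7, 29.1 and 55.8 in CEpiLC, with overlap between levels. A site near Rsbn1l and one in Anks1b followed. At low SOX2 alone the best-ranked sites lay near Sertad4, in Cubn and in Atp10a, a phospholipid flippase gene. In Atp10a, at chr7:58668356-58669222, β-catenin had a peak in 0 of 6 high and 6 of 6 low SOX2 lists of equal length and in 11 of 12 full lists. SOX2 fold was 25.3, 23.4 and 21.3 in naive ESC, 12, 6.81 and 15.8 in SOX2-ON, 22.0, 43.5 and 44.8 in SOX2-OFF, and 23.0, 20.5 and 49.7 in CEpiLC.

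A site 2.93 kb from the start of Gja1, which encodes the gap junction protein connexin 43, was the best-ranked kept site for both TCF7L1 and TCF7L2 at high SOX2 alone, at chr10:56373977-56374907. TCF7L1 had a peak in 5 of 6 high and 1 of 6 low SOX2 lists of equal length, and TCF7L2 in 6 and 1. In the full lists TCF7L1 had a peak there in 9 of 12 and TCF7L2 in 8. SOX2 fold was 43.8, 54.1 and 45.1 in naive ESC, 46.1, 52.7 and 58.3 in SOX2-ON, 20.2, 48.4 and 28.2 in SOX2-OFF, and 28.7, 24.1 and 27.5 in CEpiLC, with SOX2-OFF replicate 2 alone reaching the high SOX2 range. The other sites of these calls lay in Gse1, Greb1l, Gmnc and near Scap at high SOX2, and near Olfr90, Xpnpep2, Igfbp3 and Zfp677 and in the overlapping genes Ctbp2 and Fgfr2 and at the Tnrc18 promoter at low SOX2. LEF1 was called at high SOX2 alone near Spen and Larp1 as well, and at low SOX2 alone at the promoters of Trim28 and Fblim1 and in an intron of Tet3. In the full lists LEF1 had a peak at these sites in 8, 9, 10, 8 and 12 of 12, so these calls too depend on list length.

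Genes of the lists below were examined as the gene body with 10 kb upstream. A kept site lay in 1179 of 21924 protein-coding genes (5.38%), and gene length was not adjusted for. Of the core and naive pluripotency genes 10 of 20 held one: Pou5f1, Nanog, Esrrb, Klf2, Klf4, Tbx3, Nr5a2, Dppa3, Lin28a and Tdh. Of the FGF and ERK feedback genes 8 of 17 did, of the Nodal and BMP pathway genes 6 of 17, of the WNT pathway feedback genes 7 of 21, of the neural and SOX family genes 7 of 22 and of the caudal epiblast and mesoderm genes 4 of 24. Sites of 1 to 3 conditions were found in 15, 17, 12, 18, 20 and 21 genes of the same lists. The share of all protein-coding genes with such a site is not given here, so nothing is read from these counts.

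In the pluripotency list the promoter of Pou5f1, which encodes OCT4, held a kept site at chr17:35503652-35505616, 0.903 kb from a start. SOX2 fold was 63.3, 42.5 and 36.1 in naive ESC, 16.8, 13 and 39.5 in SOX2-ON, 33.9, 44.7 and 86.2 in SOX2-OFF, and 15.5, 21.0 and 27.1 in CEpiLC. All naive values were above CEpiLC, while SOX2-ON and SOX2-OFF overlapped. β-catenin had a peak in 12 of 12 lists of equal length. Lin28a, an RNA-binding protein gene, held one at chr4:134017910-134020363, with mean folds of 30.5 in naive ESC, 20.3 in SOX2-ON, 28.7 in SOX2-OFF and 58.4 in CEpiLC and β-catenin in 12 of 12. Upstream of Dppa3, a naive state marker, and in an intron of Esrrb, a nuclear receptor of the naive network, β-catenin had a peak in 3 of 3 naive ESC and in no CEpiLC list of equal length. In SOX2-OFF it had one in 3 of 3 at Dppa3 and 2 of 3 at Esrrb, and in the full lists in 11 of 12 at both. At Esrrb the SOX2 fold was 23.3, 23.7 and 14.2 in naive ESC and 13, 14.2 and 7.06 in CEpiLC, with overlap at 14.2.

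Among WNT feedback genes the start of Sp5, a transcription factor gene and direct WNT target, had mediators in 46 of 48 lists at chr2:70474416-70476172. SOX2 fold there was 10.4, 19.5 and 10.5 in naive ESC, 22.6, 17.1 and 21.1 in SOX2-ON, 28.1, 15.0 and 66.6 in SOX2-OFF, and 39.4, 38.4 and 36.5 in CEpiLC, with naive ESC below CEpiLC. At the promoter of Tcf7l1, chr6:72787088-72789364, SOX2 fold was 68.2, 59.0 and 57.3 in naive ESC, 34.5, 32.2 and 37.7 in SOX2-ON, 129, 14.7 and 21.2 in SOX2-OFF, and 44.8, 15.4 and 14.6 in CEpiLC. Replicate 1 stood apart in both low SOX2 conditions. TCF7L1 and TCF7L2 had a peak there in 1 of 3 lists of every condition, high or low. LEF1 had one in 2 of 3 lists of each high SOX2 condition and 1 of 3 of each low SOX2 condition. β-catenin was present in 6 of 6 high and 1 of 6 low SOX2 lists. At Lgr5, a receptor of R-spondin, TCF7L1 had a peak in 11 of 12 lists of equal length. At Lef1 itself it had one in none of these but in 4 of 12 full lists.

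In the caudal epiblast list, an intron of Cdx2, a regulator of posterior identity, had mediators in 45 of 48 lists at chr5:147303804-147305713. SOX2 fold was 17.6, 26.6 and 27.3 in naive ESC, 45.9, 22.7 and 31.1 in SOX2-ON, 13.2, 13.5 and 21.7 in SOX2-OFF, and 16.2, 29.2 and 34.4 in CEpiLC. SOX2-ON was above SOX2-OFF in every library, and CEpiLC overlapped all conditions. The intron of its paralogue Cdx1 had mediators in 40 of 48 lists. Upstream of Dll1, a Notch ligand gene, at chr17:15380202-15382769, SOX2 fold was 23.8, 21.5 and 19.1 in naive ESC, 38.9, 36.9 and 43.2 in SOX2-ON, 20.0, 36.4 and 37.7 in SOX2-OFF, and 34.4, 58.1 and 57.1 in CEpiLC, and β-catenin was found in SOX2-ON and CEpiLC but in no naive ESC or SOX2-OFF list of equal length, and in 11 of 12 full lists. The site near T, the Brachyury gene, had SOX2 folds of 6.63 to 24.6 and no mediator peak in lists of equal length, but one in 26 of 48 full lists.

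The best-ranked kept sites of the 7 neural list genes had a mediator peak in 0 to 4 of 48 lists of equal length. The intron of Nes, which encodes the progenitor filament nestin, had SOX2 folds of 16.8, 29.3 and 35.9 in naive ESC, 7.69, 11 and 18.1 in SOX2-ON, 29.5, 62.5 and 27.2 in SOX2-OFF, and 32.4, 64.1 and 72.0 in CEpiLC at chr3:87973908-87975031, and no mediator had a peak there in 48 lists. SOX2-ON was lowest, with naive ESC replicate 1 in its range. The same absence held at Rfx4 and at the Notch1 promoter, and at Ncam1 3 of 48 lists had a peak. In the full lists mediators had peaks at these 4 sites in 20 to 28 of 48.

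Among FGF and ERK feedback genes the promoter of Il17rd, an inhibitor of FGF signalling, had β-catenin and TCF7L2 in 12 of 12 lists each and TCF7L1 in 1, at chr14:27038940-27040372. SOX2 fold there was 35.1, 19.1 and 17.5 in naive ESC, 20.8, 19.9 and 31.1 in SOX2-ON, 33.9, 57.3 and 50.2 in SOX2-OFF, and 43.8, 67.4 and 96.0 in CEpiLC, with CEpiLC above every high SOX2 library. The best-ranked of the 3 kept sites of Fgfr2, an FGF receptor gene, also had β-catenin in 12 of 12. Ctbp2 holds this site as well, and its start, 8.04 kb away, is the nearest. The assignment to Fgfr2 rests on the annotated span of that gene alone. At the promoter of Etv1, an ETS factor gene, β-catenin had a peak in 3 of 3 SOX2-OFF lists of equal length and in no other condition, but in 11 of 12 full lists. In the Nodal list Lefty1, Lefty2, Foxh1 and Skil, which encode Nodal antagonists and SMAD partners, had a mediator peak in 3, 7, 2 and 0 of 48 lists of equal length. In the full lists they had one in 26, 32, 23 and 19 of 48. SOX2 fold at Lefty2 was 20.5, 27.6 and 26.9 in naive ESC, 9.77, 11.1 and 20.0 in SOX2-ON, 41.7, 66.1 and 59.0 in SOX2-OFF, and 13.7, 24.4 and 27.9 in CEpiLC at chr1:180888343-180889525, and SOX2-OFF was above every other library.

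**Figure D5:**
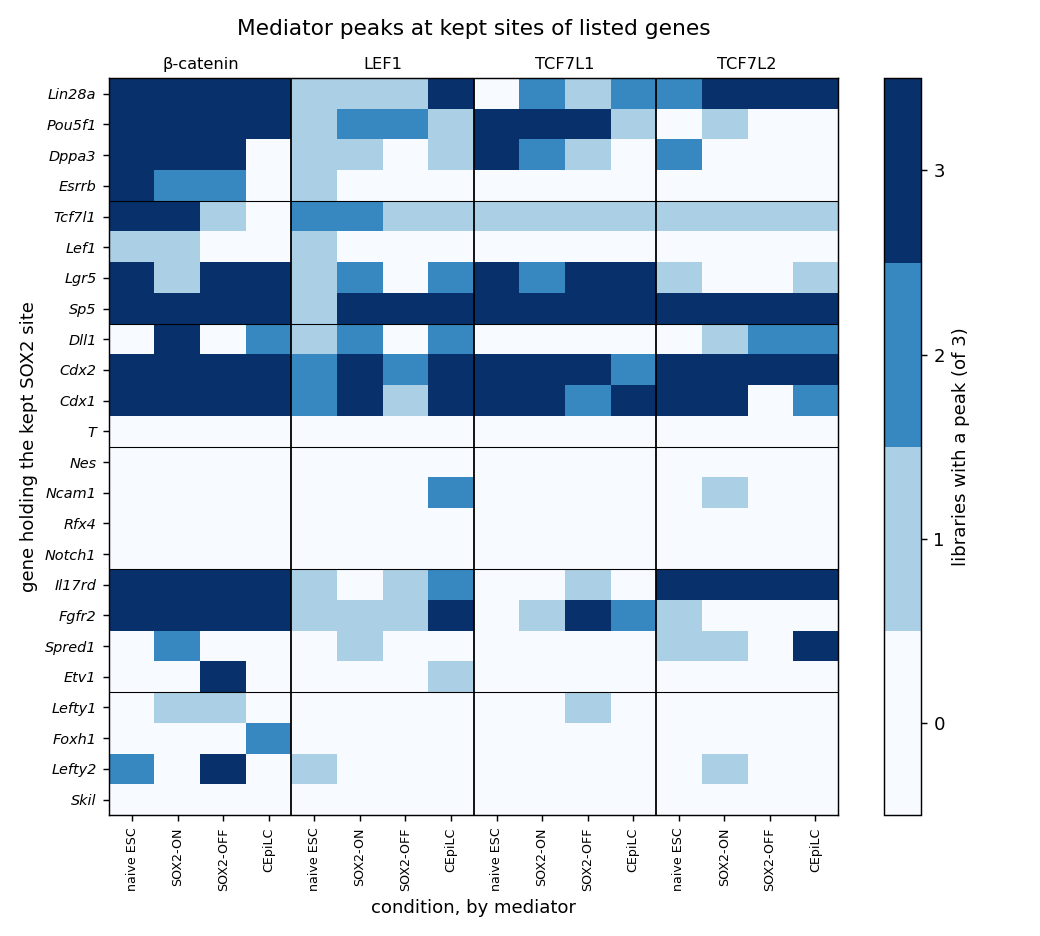
Number of libraries of 3 with a peak in lists of equal length (colour) at the best-ranked kept site of up to 4 genes per list (rows, lists separated by lines), by mediator and condition (columns). Sp5 and Cdx2 are filled in nearly every column, while Nes, Rfx4, Notch1, T and Skil are empty in all.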

How the data were processed

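Each peak list held the positions of MACS2 narrow peaks on mm10, called by the authors for each library separately after alignment with BWA in the nf-core ChIP-seq pipeline, at the default q-value of 0.05. The authors deposited for each peak its fold enrichment over local background (a ratio), which ranked the SOX2 peaks. They also deposited −log10 p and −log10 q, of which the former ranked the mediator peaks. The input paired with each library is not given in the sources used here, and the 4 inputs were not analysed here. Read counts, which the authors tested with DESeq2, were not used.

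Kept sites and gene lists were chosen with earlier results of these data known. Overlap meant at least 1 bp. Shares of sites were computed per library and compared by exact permutation tests over libraries, two-sided, with Benjamini-Hochberg adjustment over 4 mediators. A difference was called at p of at most 0.05. The methods were tested on simulated peaks. Peaks fitted within GRCm38 chromosomes (0 of 12175735 past an end). Genes came from the GENCODE basic annotation of that build. Sites named in the text were the 10 of best mean SOX2 rank, the 4 best genes per list, the 3 best sites of each mediator call and the 3 best with all mediators in all conditions. No site met the further rule of no mediator peak in 48 full lists. Sites on chromosome 18 (57 kept) are printed without sequence. Of the sites these rules name, 1 is not reported here. The labels call the replicates biological without naming separate cultures, so p-values measure only the spread between these libraries. Alternatives tried were other list lengths, rankings, overlaps, widths and member rules, leaving out replicates, and replicate blocks. Python 3.11.15, numpy 2.4.6 and pandas 2.3.3 were used.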

Additional observations from a re-analysis of the deposited data

Results flagged for a closer look

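The difference in LEF1 share of kept sites between the high and the low SOX2 condition had opposite signs in the wild-type cells and the engineered line, and passed the threshold only before adjustment. Naive ESC minus CEpiLC was -12.3 percentage points and SOX2-ON minus SOX2-OFF was 13.3, so the lines differed by -25.5 percentage points (exact permutation of line labels within each SOX2 level, p = 0.05, adjusted over 4 mediators p = 0.2). Without LEF1 replicate 1 of naive ESC, which overlapped 1.32% of kept sites, the difference was -17.8 (exact permutation, p = 0.14). Naive ESC and CEpiLC were grown in different media, and SOX2-ON and SOX2-OFF in the same basal medium, so SOX2 level and medium cannot be told apart in the wild-type comparison.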

How the results depend on the processing

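The kept sites numbered 1166 with 10000 and 584 with 5000 SOX2 peaks per list, and 7977 with all deposited peaks. They numbered 816 where all 3 lists of a condition were required. Without 1 replicate they numbered 944 to 1252, under a stricter rule, as both remaining lists of each condition were then required. The β-catenin difference between SOX2 levels was 21.7 percentage points with all deposited peaks (exact permutation, adjusted p = 0.08) and 7.42 to 8.61 without 1 replicate, where p cannot go below 0.0556. Replicate numbers were not taken to pair the libraries: of 18 same-numbered pairs per protein, 6 (SOX2), 7 (β-catenin), 4 (LEF1), 10 (TCF7L1) and 5 (TCF7L2) had a correlation of deviations over 0.1, although its mean was higher for same-numbered than for other pairs of all 5 proteins. With a replicate block the β-catenin difference was 8.21 (exact permutation, p = 0.0312, the smallest it can give, adjusted p = 0.125). At that p 1 mediator alone cannot pass after adjustment, so the block test could not decide this call. The block moved no other of the calls between levels across the threshold. For LEF1 the difference ran from -5.97 to 5.41 without 1 replicate. For TCF7L1 it was 2.04 to 5.11 without 1 replicate number, and 5.70 without SOX2-ON replicate 1, an alternative chosen after seeing the data. For TCF7L2 it was 0.466 with at most 1000 peaks per list, 5.00 with all deposited peaks, 0.0509 within 200 bp of the summit (also chosen after seeing the data), and -2.62 to 1.72 without 1 replicate. The excess at kept sites over sites of 1 to 3 conditions kept its direction and side of the threshold in every alternative run, at 29.1 to 29.6, 14.5 to 19.3, 16.5 to 19.8 and 12 to 13.1 points for β-catenin, LEF1, TCF7L1 and TCF7L2 without 1 replicate. In each alternative the comparison sites still fell short of the SOX2 rule in at least 1 condition. The unchanged direction may thus follow in part from that rule. The SOX2 summit distance between minus within conditions was 3.91 bp, and 3.38 to 4.21 bp without 1 replicate. The counts of single sites depended on list length. With at most 1000 peaks, β-catenin was at 71 sites at high SOX2 alone, 22 at low SOX2 alone and 127 in all conditions, LEF1 at 32 in all conditions, TCF7L1 at 16 at low SOX2 alone and 115 in all, and TCF7L2 at 4, 6 and 44. With all deposited peaks, β-catenin was at 0 sites at low SOX2 alone and 1012 in all conditions, LEF1 at 150, 2 and 442, TCF7L1 at 119, 0 and 678, and TCF7L2 at 8 at low SOX2 alone and 283 in all. Where all 3 SOX2 lists were required, the counts at high and low SOX2 alone were 56 and 15 (β-catenin), 12 and 15 (LEF1), 31 and 12 (TCF7L1), and 8 and 11 (TCF7L2), with 49 (LEF1) and 76 (TCF7L2) in all conditions. With absence judged in full lists they were 14 and 0, 7 and 0, 3 and 0, and 1 and 2. Without 1 replicate the counts at high SOX2 alone, low SOX2 alone and in all conditions were 45 to 65, 11 to 16 and 264 to 283 (β-catenin), 0 to 20, 4 to 18 and 8 to 51 (LEF1), 13 to 47, 9 to 13 and 95 to 158 (TCF7L1), and 6 to 13, 7 to 10 and 70 to 80 (TCF7L2). These counts, too, come from stricter rules. They needed all remaining lists of a level and none of the other level, or both remaining lists of each condition. Causes were not tested. Without read counts, what depth limits is unknown.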
